A study of Mus musculus with 6 samples.

Results

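The 10 genes described here are immediate early transcription factor genes: the FOS family (Fos, Fosb, Fosl1 and Fosl2), the JUN family (Jun, Junb and Jund), the zinc finger genes Egr1 and Egr2, and the orphan nuclear receptor gene Nr4a1. They were taken by symbol from a deposited table of raw read counts for 54532 genes, and all 10 were found and all 10 passed the low-count filter. The table holds bulk RNA-seq of primary cultures of mouse aortic endothelial cells, labelled MAEC, from 3 female and 3 male libraries. Each library carries the genotype label Oct4 KO, an endothelial-specific knockout of the pluripotency factor OCT4, and the sources used here do not name the promoter that drives the deletion. The cells were untreated and were kept in F-12 medium with 20% fetal bovine serum, antibiotics, heparin and endothelial growth factors at 37 °C and 5% CO2. Ages are not given, and wild-type cells are not analysed here, so the comparison is female against male within the knockout genotype. Whether the 3 libraries per sex were grown or prepared from different animals or cultures is not in the labels, and the p-values therefore measure the spread between these libraries, which may be technical.

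FOS and JUN proteins carry a basic DNA-binding region and a leucine zipper. JUN proteins pair with each other or with a FOS protein, FOS proteins pair with JUN proteins, and the pair is the transcription factor AP-1. The EGR proteins bind GC-rich DNA through zinc fingers, and NR4A1 is a nuclear receptor that acts without a known physiological ligand. In quiescent cells many of these genes are transcribed within minutes of a growth factor, serum, shear or stress signal, because the factors that induce them, such as SRF with its ternary complex partners and CREB, are already on the DNA; their transcripts are then rapidly degraded. In vessel wall cells they are known as early responders to injury, flow and serum.

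The proximal promoters of a few of the genes are shown because the members moved in opposite directions and these sequences hold the letters of the signal-response elements. RefSeq windows on GRCm38.p6 were found for 8 of the 10 genes (Egr2, Fos, Fosb, Fosl2, Jun, Junb, Jund and Nr4a1), and the bases just upstream of the start site are printed 5′ to 3′ on the gene's strand for the gene with the largest fall (Egr2), the genes with the largest rises (Nr4a1 and Jun) and the founding member, Fos. Of the 5 Egr2 windows, 3 overlap and share the same capitalised matches, and the stretch printed is from the most upstream of these 3. Capitals mark, in either orientation, TGACG (the core of the cyclic AMP response element), the related TGCGTCA, the Jun-type element TGACATCA, the CArG box bound by SRF, the MEF2 site and the TATA box letters TATAAA.
Egr2, chr10:67537749-67537868, plus strand: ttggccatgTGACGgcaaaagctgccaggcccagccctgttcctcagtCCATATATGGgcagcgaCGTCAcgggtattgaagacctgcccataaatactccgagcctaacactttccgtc
Nr4a1, chr15:101266726-101266845, plus strand: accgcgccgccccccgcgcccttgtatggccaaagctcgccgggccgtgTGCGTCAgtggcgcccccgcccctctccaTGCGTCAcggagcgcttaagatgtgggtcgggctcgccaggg
Jun, chr4:95052223-95052342, minus strand: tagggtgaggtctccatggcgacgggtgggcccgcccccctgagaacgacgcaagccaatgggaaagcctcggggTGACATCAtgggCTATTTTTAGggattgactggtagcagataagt
Fos, chr12:85473770-85473889, plus strand: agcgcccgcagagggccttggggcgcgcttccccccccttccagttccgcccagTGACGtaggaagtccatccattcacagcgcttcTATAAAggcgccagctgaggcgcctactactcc

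In the 250 bases upstream of the start, searched on both strands, TGACG was found in 5 of the 8 genes (Egr2, Fos, Fosb, Junb and Nr4a1) and in 17.8% of all 32851 RefSeq windows. A gene counted if any of its windows matched (12 windows for the 8 genes), whereas the percentages are of single windows. TGCGTCA, whose reverse complement holds TGACG, was found in Fosb and Nr4a1 and in 1.75% of windows, and the Nr4a1 window holds it at 4 places. The CArG box was found in Egr2 alone among the 8 (1.47% of windows), while the MEF2 site (0.508%) and TGACATCA (2.93%) were found in Jun alone. Bases further upstream were not searched, so a site beyond these 250 bases would be missed in any gene. TATAAA was found in Fos and in 12.4% of windows. The full palindrome TGACGTCA and the AP-1 site TGANTCA were in none of the 8, against 1.55% and 6.75% of windows. GCGNGGGCG, an EGR-type site, was found in Fosb, Fosl2 and Nr4a1 and in 4.7% of windows. These matches describe letters in the windows and were not tested against the expression values. Genes with TGACG in the window included Egr2 and Junb, which fell, and Fos, Fosb and Nr4a1, which rose.

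Female libraries held 20404758 to 21483163 counts and male libraries 19299742 to 23064738. Mitochondrially encoded genes took 2.13% to 2.59% of female and 2.12% to 2.72% of male counts, and ribosomal RNA genes took 0.116% to 0.141% of female and 0.0696% to 0.082% of male counts. Values are given as counts scaled to the TMM effective library size (CPM), and levels of different genes are compared per kilobase of the gene length in the table (RPKM). Each log2 fold change is that of female relative to male cells, as estimate ± SE, with p-values from edgeR's quasi-likelihood test adjusted by Benjamini-Hochberg over all 14814 genes tested, and a gene is said to be called when that adjusted p is under 0.05. The targeted gene Pou5f1, which encodes OCT4, had 0 counts in all 6 libraries, and with no wild-type cells analysed here this does not check the genotype label. The endothelial label was at odds with the markers. Of 10 endothelial marker genes, 8 stayed under 1 CPM throughout, and of these Cldn5 and Emcn had 0 counts in each library. All 10 together, Egfl7 and Pecam1 included, summed to 4.71 to 6.81 CPM in female and 4.79 to 5.51 CPM in male libraries, and of the 2 tested Pecam1 was lower in female cells (edgeR adjusted p = 0.0486) and Egfl7 was not called. The sum of 10 fibroblast markers was 15568 to 17508 CPM in female and 7128 to 7663 CPM in male libraries. Of the 10, 7 were called higher and 2 lower (Col1a2 and Pdgfrb) in female cells, against 30.9% and 29.8% of all genes tested. Most of the difference in the sum was Dcn, at 6375 CPM in female and 442 CPM in male cells, and Col1a1 was not called. Smooth muscle markers summed to 62.4 to 67.4 CPM in female and 160 to 174 CPM in male libraries (4 of 5 tested lower). Pericyte markers summed to 126 to 146 CPM in female and 261 to 279 CPM in male libraries, although 4 of 5 tested were higher and 1 lower. These pericyte sums rest largely on single genes. Rgs5 was at 0.756 CPM in female and 256 CPM in male cells, and Cspg4 at 108 CPM in female and 3.19 CPM in male cells. Leukocyte markers summed to 14 to 17.9 CPM in female and 52.8 to 64.9 CPM in male libraries (1 higher and 1 lower of 3 tested). Most of that was Lyz2, at 9.89 CPM in female and 54.6 CPM in male cells, and Ptprc, Adgre1 and Cd3e had 0 counts. Mesothelial and epithelial markers summed to 9.02 to 13.5 CPM in female and 11.5 to 18.1 CPM in male libraries (1 of 2 tested lower), with Msln and Upk3b at 0. The part of these cell type and ribosomal RNA differences in the values below was not tested. In bulk RNA, fewer cells of a type and less RNA per cell cannot be told apart.

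Female cells carried more RNA of Nr4a1, Jun, Fosl2, Fosb, Egr1 and Fos and less of Egr2, Junb and Fosl1 than male cells, and Jund was not called. The call was higher for 6 and lower for 3 of the 10 genes, and for 9 of them no female value lay within the male range. Of all genes tested, 60.7% were called (30.9% higher and 29.8% lower) and 67.1% had groups that did not overlap, so a called member was the usual case in this comparison. The median log2 fold change was 0.63 over the 10 genes and -0.01 over all genes tested, and 5 of the 10 differed at least 2-fold, which 25.2% of all genes tested did. With total counts in place of TMM scaling, the median of all genes moved to -0.13, and every member called kept its direction under that and the other scalings.

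**Figure D1:**
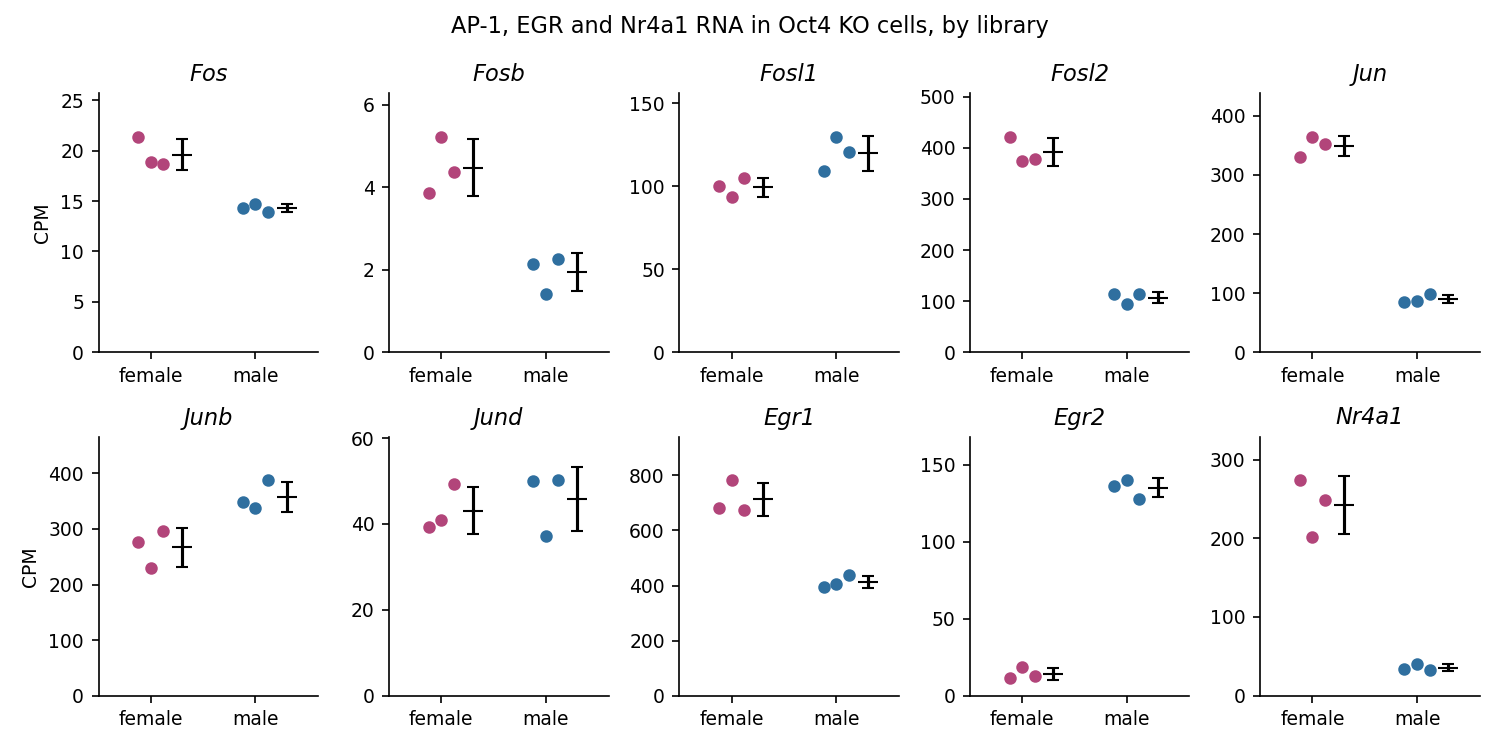
Scaled counts (CPM, linear axes from 0) of the 10 genes in each library, female left of male, with the mean ± SD beside the 3 points of each sex. The points of the sexes do not overlap except for Jund, and Egr2 is the gene that stands far higher in male cells.

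Within the FOS family, Fosl2 rose the most in female cells. Fosl2 (chromosome 5, 32135801 to 32157842, mm10) encodes FRA-2, a FOS protein without the strong activation domain of c-FOS. It had 422, 374 and 378 CPM in female libraries 1 to 3, against 114, 94.2 and 113 CPM in male libraries 1 to 3. The female and male values were far apart (3.66-fold, log2 1.87 ± 0.09, edgeR adjusted p = 1.7e-11). With offsets for gene length (Fosl2 spans 9680 exon bases), the log2 value was 1.45.

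Fos (chromosome 12, 85473890 to 85477273), the gene of c-FOS and the best known serum-induced gene, was present at a low level. It had 443, 369 and 368 counts in female libraries, against 302, 291 and 338 in male libraries. Scaled, these were 21.4, 18.9 and 18.7 CPM in female and 14.3, 14.7 and 13.9 CPM in male libraries. Every female library was above every male library, by a small margin (1.37-fold, log2 0.46 ± 0.13, edgeR adjusted p = 0.00523). Fosb (chromosome 7, 19302696 to 19310051), which also yields the stable splice form delta-FOSB, was the least abundant member. Its counts were 80, 102 and 86 in female libraries, against 45, 28 and 55 in male libraries, and its fold change carried the largest SE of the 10 (2.3-fold, log2 1.20 ± 0.29, edgeR adjusted p = 0.00188).

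Fosl1 (chromosome 19, 5447703 to 5455945) encodes FRA-1, the FOS protein typical of motile and mesenchymal cells. It had 100, 93.4 and 105 CPM in female libraries, against 109, 130 and 121 CPM in male libraries. The groups did not overlap, but the highest female and the lowest male library were close (log2 -0.27 ± 0.09, edgeR adjusted p = 0.0118). In GENCODE M21, whose Fosl1 model is longer than that of the table (2033 against 1707 bases), 1163 exon bases are shared with the oppositely oriented Ccdc85b, which was at 34.1 CPM in female and 81.3 CPM in male cells. By the gene coordinates deposited with the counts, neither Ccdc85b nor any other gene overlapped Fosl1. The call of Fosl1 was lost with gene length offsets (log2 -0.12, edgeR adjusted p = 0.206, with 0.00104 to 0.27 over the 16 alternatives).

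Jun was the JUN family gene that rose in female cells, while Junb fell. Jun (chromosome 4, 95049034 to 95052222), the gene of c-JUN, had 331, 365 and 352 CPM in female libraries, against 84.6, 87.2 and 98.2 CPM in male libraries. All female values were far above all male values (3.88-fold, log2 1.96 ± 0.08, edgeR adjusted p = 3.35e-12). A stretch of 232 exon bases of Jun is shared with the antisense gene Junos in GENCODE M21. Junos had 227, 241 and 212 counts in female libraries, against 47, 65 and 91 in male libraries. Since it is not stated whether counting used strand, reads from that stretch cannot be assigned to a strand.

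Junb (chromosome 8, 84974484 to 84978718), whose product is a weaker activator than c-JUN and restrains it in several settings, had 277, 229 and 297 CPM in female libraries, against 348, 337 and 388 CPM in male libraries. All female libraries were lower (log2 -0.42 ± 0.09, edgeR adjusted p = 0.001). Junb shares 173 exon bases with the oppositely oriented Prdx2, a peroxiredoxin gene that had 4134, 3913 and 4364 counts in female libraries, against 8600, 8621 and 8422 in male libraries, so a part of the Junb count is uncertain. Jund (chromosome 8, 70698949 to 70700616), the JUN gene expressed most evenly across tissues and growth states, had 39.2, 40.8 and 49.2 CPM in female libraries, against 49.9, 37.3 and 50.2 CPM in male libraries. The groups overlapped (log2 -0.09 ± 0.12, edgeR adjusted p = 0.543), which does not show equal levels. The antisense gene Gm11175, which shares 877 exon bases with it, had 0 counts in all libraries.

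**Figure D2:**
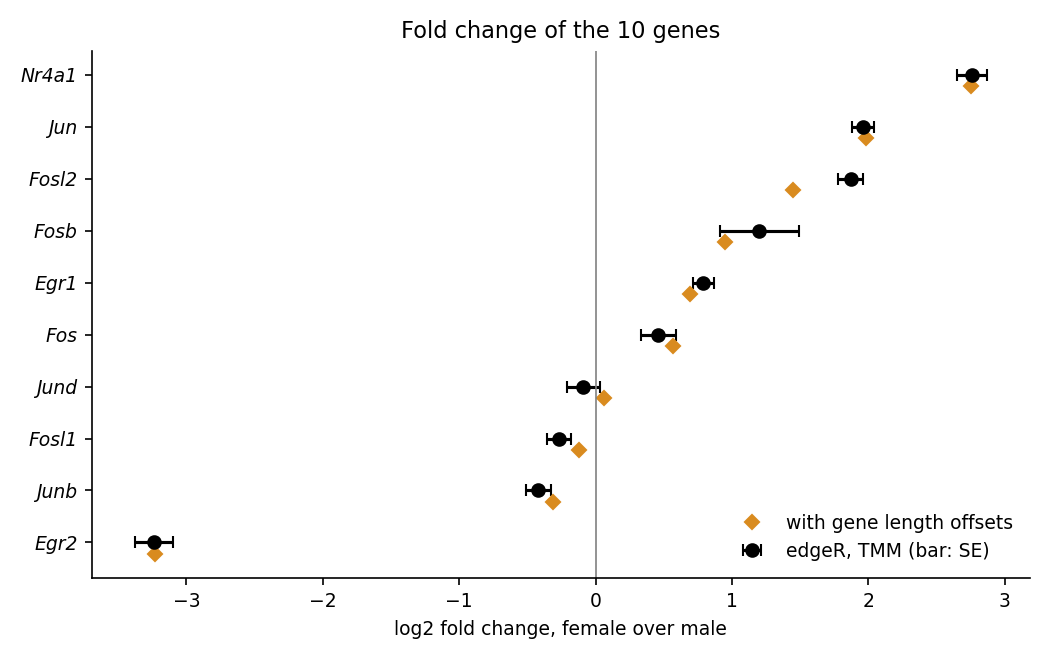
Log2 fold change of female over male for the 10 genes, with circles and bars for the edgeR estimate ± SE and diamonds for the fit with gene length offsets. Nr4a1 lies at 2.76 and Egr2 at -3.24, Fosl2 moves most with the offsets (1.87 to 1.45), and Fosl1 and Jund lie near 0.

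Jun and Fosl2 made up more, and Junb and Fosl1 less, of the AP-1 RNA in female than in male libraries. Summed over the 4 FOS genes, the level was 102 to 112 RPKM in the female and 82.1 to 92.6 RPKM in the male libraries, and over the 3 JUN genes it was 238 to 269 RPKM in female and 196 to 229 RPKM in male libraries. Within the JUN family, Jun made up 43.7% ± 3.79 of the reads per kilobase in female and 13.4% ± 0.576 in male cells (SD, n = 3 each), and Junb 46.1% ± 3.80 in female and 73.7% ± 0.957 in male cells. Jund contributed 10.2% ± 0.740 in female and 13.0% ± 1.52 in male cells. Per kilobase, Jun and Junb thus had similar shares in female cells, while Junb had the largest share in male cells. By raw counts, Jun had 53% and Junb 40.5% of the JUN family in female cells, against 18.2% and 72.5% in male cells.

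In the FOS family, Fosl1 had the largest share in each sex, at 54.1% ± 2.05 in female and 80% ± 2.33 in male cells, and Fosl2 followed with 37.5% ± 1.63 in female and 12.7% ± 1.95 in male cells (SD, n = 3 each). Fos contributed 7.75% ± 0.438 in female and 6.94% ± 0.417 in male cells, a direction that turned by raw counts (3.81% in female and 5.88% in male cells). Fosb contributed 0.670% ± 0.135 in female and 0.356% ± 0.097 in male cells. Over all 7 AP-1 genes, Jun and Junb made up 30.6% ± 2.64 and 32.3% ± 2.67 in female cells, against 9.43% ± 0.260 and 52.0% ± 1.11 in male cells. The shares of Fosl1, Fosl2, Jun, Junb, Jund and Fosb in their families did not overlap between the sexes, and the two-sided exact permutation p of 0.1 is the smallest that 3 against 3 libraries allow (0.127 adjusted over the 14 shares computed). For the family share of Fos the exact permutation p was 0.2 (0.215 adjusted). These shares rest on the merged exon length of each gene and would differ for a shorter isoform: by raw counts, Fosl2 rather than Fosl1 had the larger share of the FOS family in female cells (76% for Fosl2 and 19.3% for Fosl1). Over all 7 AP-1 genes, the raw-count shares in female cells were 33.3% for Fosl2, 29.8% for Jun and 22.7% for Junb, against 14.5% for Fosl2, 12.2% for Jun and 48.5% for Junb in male cells.

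**Figure D3:**
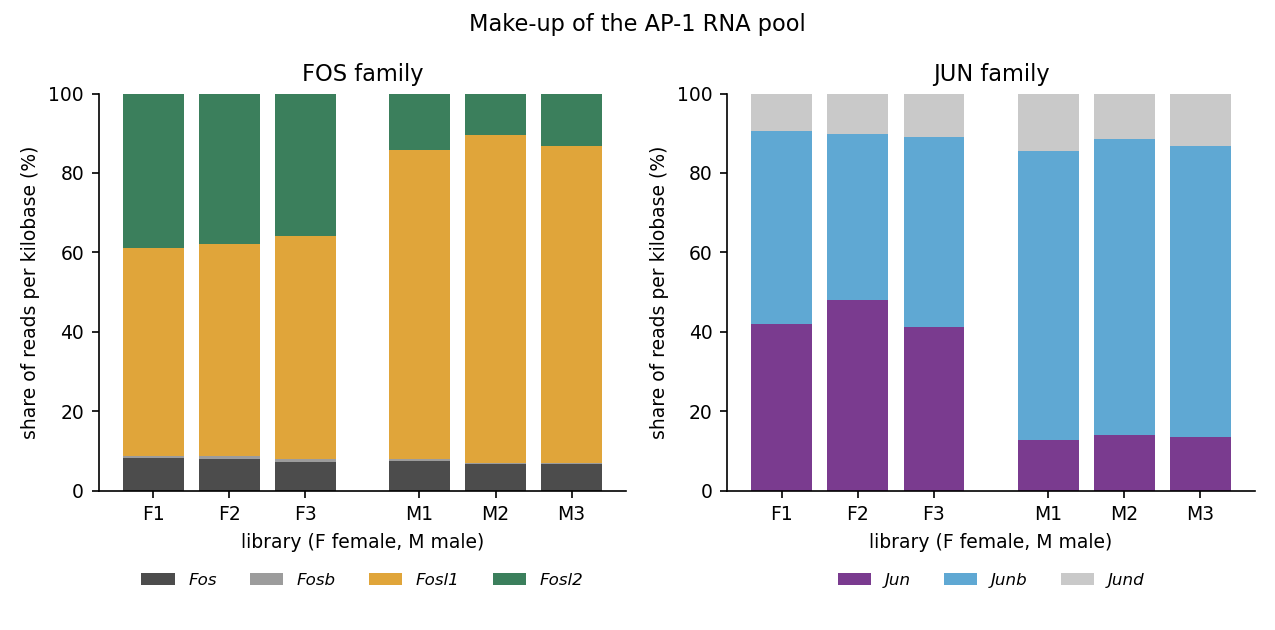
Share of each gene in the reads per kilobase of the FOS family (left) and of the JUN family (right), as stacked bars from 0 to 100% for female libraries F1 to F3 and male libraries M1 to M3. Fosl2 and Jun take larger shares in each female bar than in any male bar, and Fosl1 and Junb take smaller shares.

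The EGR genes went in opposite directions. Egr1 (chromosome 18, 34859823 to 34864984), an early response gene of injured and sheared vessel wall cells, had 682, 783 and 673 CPM in female libraries, against 394, 404 and 437 CPM in male libraries. The groups were well separated (1.73-fold higher, log2 0.79 ± 0.08, edgeR adjusted p = 2.92e-07). Egr2 (chromosome 10, 67535475 to 67542188), also named Krox20 and best known from hindbrain segmentation and myelinating Schwann cells, had 232, 367 and 254 counts in female libraries, against 2866, 2784 and 3118 in male libraries. These were 11.2, 18.8 and 12.9 CPM in female and 136, 140 and 128 CPM in male libraries, and every female library was far lower. The level was 9.44-fold lower in female cells (log2 -3.24 ± 0.14, edgeR adjusted p = 3.63e-12), and 762 genes of the 14814 tested had a change of at least that size in either direction. Female library 2 stood above the other two, and the coefficient of variation of Egr2 was 27.9% among female and 4.56% among male libraries, where the median gene had 10.7% in female and 10.2% in male libraries. Without female replicate 2 the log2 fold change was -3.48 and without female replicate 1 it was -3.09.

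Nr4a1 (chromosome 15, 101254269 to 101274795), also named Nur77, had the largest rise. It had 274, 202 and 249 CPM in female libraries, against 34.0, 40.2 and 33.2 CPM in male libraries. The lowest female library was well above the highest male library (6.76-fold, log2 2.76 ± 0.11, edgeR adjusted p = 2.06e-12). Its paralog Nr4a2 followed at 2452, 1717 and 2143 counts in female libraries, against 264, 226 and 366 in male libraries (log2 3.01 ± 0.13, edgeR adjusted p = 2.75e-12). Nr4a3 did not pass the filter, with 52, 10 and 37 counts in female libraries, against 7, 5 and 9 in male libraries.

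Ordered by level per length, female cells had Egr1 first at 159 ± 13.6 RPKM, then Junb at 116 ± 15.2 and Jun at 109 ± 5.35 (SD, n = 3). Nr4a1 at 68.9 ± 10.5, Fosl1 at 58.2 ± 3.37, Fosl2 at 40.4 ± 2.78 and Jund at 25.8 ± 3.22 RPKM came next, and Fos at 8.35 ± 0.645, Egr2 at 4.21 ± 1.17 and Fosb at 0.718 ± 0.110 RPKM were last. Among neighbours in that order, Junb and Jun overlapped, as did Nr4a1 and Fosl1. In male cells the order began with Junb at 155 ± 11.5, Egr1 at 91.8 ± 5.04, Fosl1 at 70.4 ± 6.23 and Egr2 at 39.7 ± 1.81 RPKM (SD, n = 3). Jun at 28.2 ± 2.25 and Jund at 27.5 ± 4.44 RPKM overlapped, as did Fosl2 at 11.1 ± 1.15 and Nr4a1 at 10.2 ± 1.10, and Fos at 6.08 ± 0.165 and Fosb at 0.310 ± 0.0734 RPKM closed it. Egr2 thus held position 9 of 10 in female and 4 of 10 in male cells, and Nr4a1 position 4 in female and 8 in male cells.

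Among libraries of the same sex the members did not vary as a block. Over the 6 libraries, with each sex mean removed from the log2 CPM, Egr1 correlated with Jun at Pearson r = 0.79 and with Egr2 at 0.71, but with Nr4a1 at -0.77 and with Fos at -0.42. Fos correlated with Nr4a1 at 0.70 and with Jun at -0.68. These are descriptions over 6 points that share libraries and scaling. Fos deviated from its sex mean by only -0.07 to 0.12 log2, at 291 to 443 counts, so counting noise may make up much of its correlations. With 6 points and 10812 genes searched, a high r of the best genes does not show a link. By the same measure, the 5 genes most like Fos among the 10812 genes whose mean reached 5 CPM were Hacd3, Zdhhc24, Adck1, Adcy5 and Cpq (r = 0.98 for each), those most like Egr1 were Topors, Traf3ip1, Igsf9b, Arhgef10 and Adam22 (0.99 to 0.999), and those most like Jun were Epdr1, Abtb2, Zfp319, Lca5 and Heca (0.99).

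In the MAP kinase cascade, which carries growth factor and stress signals to SRF, AP-1 and EGR genes, female cells had more of 9 and less of 5 out of 26 genes tested, and the median log2 fold change was 0.13. Rps6ka3, the gene of the ERK-activated kinase RSK2, was at 98.8 CPM in female against 30.5 CPM in male cells (log2 1.69 ± 0.12), Map2k6, a p38 activator, at 29.7 CPM in female and 13.4 CPM in male cells (1.15 ± 0.14) and Braf at 45.0 CPM in female and 29.4 CPM in male cells (0.61 ± 0.10). Rps6ka3 lies on the X chromosome. Map2k2, the MEK2 gene, fell to 128 CPM in female against 255 CPM in male cells (edgeR adjusted p = 4.88e-08). With gene length offsets the call of Braf was lost (log2 0.06, edgeR adjusted p = 0.604) and 9 genes of the list were lower in female cells.

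Of 15 tested genes for the factors that act at immediate early promoters, coactivators included, 8 were higher in female cells and Elk3 alone was lower. Among all genes tested, 60.7% were called. The list's median log2 value was 0.30. Mef2d was at 140 CPM in female against 79.3 CPM in male cells (0.81 ± 0.09), Crem, which encodes CREB-related activators and the repressor ICER, at 53.7 CPM in female and 21.6 CPM in male cells (1.31 ± 0.13), Elk1, a ternary complex factor, at 42.1 CPM in female and 22.3 CPM in male cells (0.91 ± 0.11) and Mef2c at 11.4 CPM in female and 3.38 CPM in male cells (1.76 ± 0.27). Elk1 lies on the X chromosome. Srf itself was not called, at 36.8 in female against 43.0 CPM in male cells (-0.22 ± 0.10, edgeR adjusted p = 0.0548). With gene length offsets 6 genes of this list were higher and 5 lower. The myocardin gene Myocd had 0 counts in every library.

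Feedback inhibitors of ERK signalling, themselves induced by it, were called in both directions, as were genes at large. Of 16 tested, 7 were higher and 6 lower in female cells, where 60.7% of all genes tested were called (30.9% higher and 29.8% lower). The list's median log2 fold change was 0.03. Dusp2, a nuclear phosphatase for ERK, had 868, 522 and 820 counts in female libraries, against 19, 45 and 35 in male libraries (log2 4.59 ± 0.25, edgeR adjusted p = 7.4e-11). Spry1, a Sprouty inhibitor of receptor tyrosine kinase signalling, had 218, 163 and 204 counts in female libraries, against 2296, 2138 and 2699 in male libraries (-3.49 ± 0.10, edgeR adjusted p = 3.38e-14). Spred1 rose to 643 CPM in female cells, against 329 CPM in male cells, and Dusp5 fell to 56.5 CPM in female cells, against 126 CPM in male cells. Dusp1, a phosphatase gene induced together with Fos in many cells, was at 13.2 in female and 13.6 CPM in male cells and was not called (log2 -0.04 ± 0.16, edgeR adjusted p = 0.828).

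**Figure D4:**
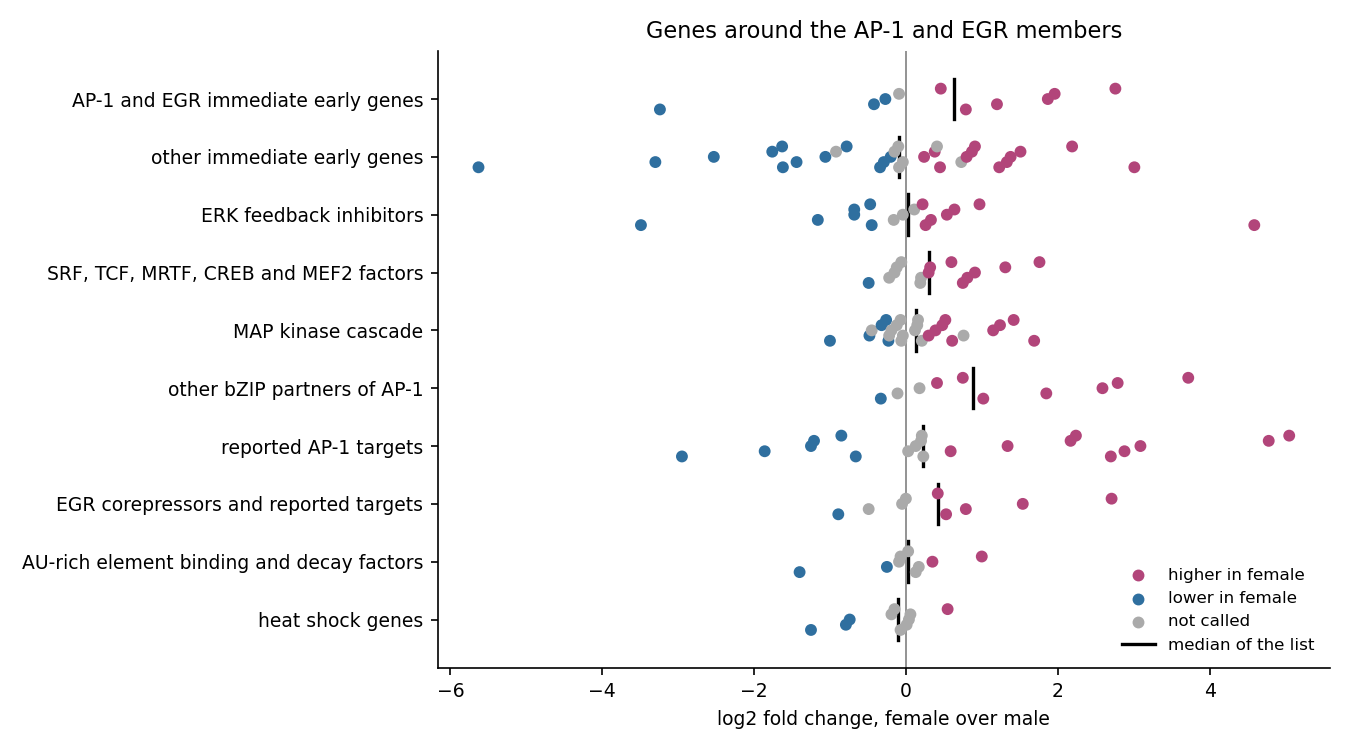
Log2 fold change of female over male for each tested gene of the member list and of the related lists, coloured by the edgeR call, with a vertical bar at the median of each list. The members have a median of 0.63, other immediate early genes spread from -5.63 to 3.01 around -0.09, and the MAP kinase and decay factor genes lie closer to 0.

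Other immediate early genes were evenly split. Of 31 tested, 12 rose and 12 fell in female cells, beside 60.7% of all genes tested that were called. The list's median log2 value was -0.09. Nr4a2 and Ptgs2, the cyclooxygenase-2 gene, were among the higher, Ptgs2 at 809 CPM in female against 177 CPM in male cells (2.19 ± 0.11, edgeR adjusted p = 4.13e-11). The connective tissue growth factor gene Ctgf fell to 111, 94 and 182 counts in the female libraries, against 6743, 6321 and 7777 in the male libraries (-5.63 ± 0.16, edgeR adjusted p = 2.01e-14). Sgk1, a serum- and glucocorticoid-induced kinase gene, was at 114 in female against 1126 CPM in male cells (-3.30 ± 0.10). Egr3, another EGR family gene, chosen after its values were seen, was at 76.4 CPM in female against 26.8 CPM in male cells (1.51 ± 0.13, edgeR adjusted p = 3.59e-08).

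Among other bZIP genes whose products can pair with FOS or JUN, 7 of 10 tested were higher in female cells and Mafk was lower. Among all genes tested, 60.7% were called and 30.9% were higher. The list's median log2 value was 0.88. Maf, a large MAF factor gene, was at 8.20 CPM in female and 2.27 CPM in male cells (1.85 ± 0.22), Mafg at 217 CPM in female and 107 CPM in male cells (1.02 ± 0.08) and Atf7 at 106 CPM in female and 63.2 CPM in male cells (0.75 ± 0.10). The call of Mafk (log2 -0.33, edgeR adjusted p = 0.0211) was lost without female replicate 1 (adjusted p = 0.0591) or male replicate 3 (0.126). Of the 42 tested genes that the authors' table assigns to the bZIP family, the 7 AP-1 members included, 22 were higher and 10 lower, with a median of 0.40.

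Factors that bind AU-rich elements, the sequences that mark FOS and other early transcripts for decay, were called in both directions: 2 of 9 were higher and 2 lower in female cells, where 60.7% of all genes tested were called. With gene length offsets 2 were higher and 5 lower, and with total counts 1 was higher and 4 were lower. Zfp36, the tristetraprolin gene, was at 71.4 in female and 35.7 CPM in male cells (1.00 ± 0.11, edgeR adjusted p = 3.91e-07), and its paralog Zfp36l2 at 129 CPM in female and 341 CPM in male cells (-1.40 ± 0.10, edgeR adjusted p = 2.08e-09). Tia1 (log2 0.35) was no longer called without male replicate 2 (edgeR adjusted p = 0.0556) and turned to -0.25 with gene length offsets (adjusted p = 0.015). Hnrnpd (-0.25) was no longer called without female replicate 1 (edgeR adjusted p = 0.123) or male replicate 3 (0.0519). Of 10 heat shock genes, not all of them stress-induced, Hsph1 was higher and Hspa1b, Hspd1 and Hspe1 were lower in female cells. The other 6 were not called. Hspe1 was at 77.1 CPM in female and 183 CPM in male cells (-1.25 ± 0.08, edgeR adjusted p = 1.16e-09). Stress during handling was not tested. With total counts 5 heat shock genes were lower.

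Reported AP-1 targets were called in both directions. Of 20 tested, 9 were higher and 6 lower in female cells, beside 60.7% of all genes tested that were called. The list's median log2 value was 0.22. Il1rl1, the gene of the interleukin-33 receptor ST2, was at 1479 in female and 44.7 CPM in male cells (5.05 ± 0.09), Lif, an interleukin-6 family cytokine gene, at 770 CPM in female and 119 CPM in male cells (2.70 ± 0.09), the stromelysin-2 gene Mmp10 at 245 CPM in female and 33.2 CPM in male cells (2.88 ± 0.10) and the urokinase gene Plau at 112 CPM in female and 13.1 CPM in male cells (3.09 ± 0.11). Of 9 tested EGR corepressors and reported targets, 5 were higher and Tgfb1 was lower (2 were lower with total counts, and likewise without male replicate 1). Fgf2 was at 43.0 in female and 6.56 CPM in male cells (2.71 ± 0.13), Vegfa at 1155 CPM in female and 397 CPM in male cells (1.54 ± 0.09) and Nab1, an EGR corepressor gene, at 119 CPM in female and 69.3 CPM in male cells (0.79 ± 0.09), while Tgfb1 was at 222 CPM in female and 411 CPM in male cells (-0.89 ± 0.08). Nab2, a corepressor that EGR1 itself induces, was at 116 CPM in each sex and was not called (log2 0.00 ± 0.12, edgeR adjusted p = 0.982). In the target lists each listed gene has other regulators as well, and no gene's value was linked to AP-1 or EGR binding in these data.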

How the data were processed

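Bulk RNA-seq of polyadenylated RNA was available for 6 libraries. Per the submitters' processing notes, HISAT2 2.0.5, featureCounts 1.5 and the mm10 genome were used; the strand and multi-mapping settings are not given in the sources used here. The values are raw read counts per gene as deposited by the authors, with no normalisation. The table held 0 other sample columns and 0 rows without a gene name. Gene length, deposited in the same table as another number, equalled the merged exon length in GENCODE M21 for all members but Fosl1 (1707 against 2033 bases).

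No pair of libraries within a sex agreed to within counting noise (chi-square over its degrees of freedom, 7.83 to 17.3). The sexes were compared with edgeR 4.0.16 in R 4.3.3 (filterByExpr, TMM factors 0.948 to 1.06, quasi-likelihood test, sex as the only term, two-sided). The SE is the absolute log2 estimate over the root of the F statistic. DESeq2 1.42.0, limma-voom 3.58.1, other scalings and filters, gene length offsets (a loess of log2 CPM on log2 length per library), a replicate block and leaving out each library were the alternatives. Members and gene lists were chosen with earlier results of these data known. The text names all members, up to 4 genes per related list with the smallest adjusted p, and the 5 genes most like Fos, Egr1 and Jun, except for a gene that is not reported here; Pou5f1, Junos, Prdx2, Gm11175, Ccdc85b, Nr4a3, Egr3, Elk3, Srf, Myocd, Dusp1, Mafk, Nab2 and the marker genes named were added. Promoter windows are RefSeq's. Counting precision is limited by 28 to 102 counts for Fosb, the member with fewest reads.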

Additional observations from a re-analysis of the deposited data

How the results depend on the processing

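Over 16 alternatives, 8 of the 9 calls among the members held in every one; Fosl1 lost its call with gene length offsets, alone (adjusted p = 0.206) and with the replicate block (0.27), and Jund, never called, turned to 0.06 and 0.07. Across genes averaging 5 CPM or more split into 5 classes by length, the median log2 was -0.40 in the shortest class, which holds Fos, Fosl1, Junb and Jund, and 0.39 in the longest, which holds Fosl2. Genes of the factors bound at immediate early promoters called lower numbered 1, and 2 with upper quartile scaling, 4 with total counts, 5 with gene length offsets and 5 with these and the replicate block. In the same order, MAP kinase genes called lower numbered 5, and 8, 8, 9 and 10. With total counts, EGR corepressors and targets called lower were 2 instead of 1, heat shock genes called lower 5 instead of 3, and decay factors 1 higher and 4 lower instead of 2 and 2. Decay factors called lower were 5 with length offsets, with or without the block, and 1 was higher with both. Leaving out each library gave 0 to 1 bZIP partners lower, 1 to 2 EGR corepressors and targets lower (2 without male replicate 1, Gdf15 being added at adjusted p = 0.0361), and 1 to 2 decay factors in each direction. The cause of these changes was not tested.

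By raw counts instead of reads per kilobase, the female minus male difference in family share, in percentage points, was -2.07 for Fos, 0.0825 for Fosb, -30.0 for Fosl1, 32.0 for Fosl2, 34.8 for Jun and -32.0 for Junb. In the share of all AP-1 reads it was -0.274 for Fos, 18.8 for Fosl2, 17.6 for Jun and -25.8 for Junb. Fos thus turned sign in each, while the shares of the others kept theirs. The construction, without division by length, weighs long genes such as Fosl2 more.

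Same-numbered female and male libraries did not deviate together (correlations 0.00568, -0.0531 and -0.0625 across genes), and 0 of 6 libraries correlated best with the library of the other sex that has its number. With the replicate block, 4360 genes were higher and 4165 lower by the same threshold, against 4580 and 4413 without it, and 6 and 3 members were called higher and lower in each.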
